A study of Mus musculus with 13 samples.

Results

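The 48 genes described here encode the machinery that copies DNA. They were chosen by symbol, with earlier results of these data known, from 57010 genes listed for both Parse experiments, in which all 48 were found. They were sorted by role into licensing and helicase loading (10 genes), origin firing (6 genes), polymerases and primase (8 genes), the sliding clamp, its loader, single-strand binding and fragment joining (10 genes), nucleotide synthesis (4 genes), regulators of the step from G1 to S phase (4 genes), and chromatin assembly and others (6 genes). Their levels were followed over thymocyte stages, over parts of the cell cycle, and in dividing B cells.

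DNA replication starts at origins. In G1, the origin recognition complex, Cdc6 and Cdt1 load the Mcm helicase onto DNA, a step called licensing. In S phase the kinase formed by Cdc7 and Dbf4, together with Cdc45 and the GINS complex, turns the helicase on, and the polymerases follow it around the clamp Pcna. Ribonucleotide reductase, thymidylate synthase and thymidine kinase supply the nucleotides. Many of these genes are targets of E2F factors, which become active when G1 cyclins and their kinases push the cell out of G1. In the thymus, dividing cells are found mainly among double-negative (DN) cells, which carry neither CD4 nor CD8, and among the early double-positive blasts (DP-P) that follow them. Resting double-positive cells (DP-R) come next, then cells under selection (DP-S), then single-positive (SP) CD4 and CD8 cells.

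The study compared single-cell RNA-seq kits on the mouse thymus. Parse kits label fixed cells by rounds of barcodes in plates and prime RNA with random hexamers as well as oligo-dT, so that intronic RNA is counted. The Parse WT kit held the 4 thymic lobes of 2 female C57BL/6N mice aged 2 months, with no treatment given, beside 16 unrelated samples from young and adult mice, some of them control and some under chronic stress. The Parse Mini kit held 4 lobes of another 2 such mice. The study's text calls the unrelated samples non-thymic. The labels name thymus and spleen for the kit as a whole and not the tissue or treatment of each sample, so those were not split. The names of these samples begin with CVS_C, CVS_S or YD_C, codes that were not used as groups, and the samples were pooled over them. Lobes of 1 mouse are not separate animals, and no term for the mouse was fitted. The p-values below measure how the difference between classes of the same lobe varies over 8 lobes. After quality control and removal of called doublets, 3054 to 9627 cells per lobe remained, with 7080004 to 33751497 UMIs (counted RNA molecules), of which 19997 to 81536 belonged to the 48 genes. A total of 460 barcodes occurred in both kits, 0.358% of the WT and 2.29% of the Mini barcodes.

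Cells were clustered without the 48 genes and without 39 further replication genes, and clusters were named from marker lists. DP-P-like cells (3957 cells) came from 2 clusters that raised 14 of 14 proliferation markers and 9 and 6 of 11 DP markers. The 19871 DP-R-like cells raised 11 of 11 DP markers and no proliferation marker. Proliferating DN-like cells (857) raised all 14 proliferation markers but only 4 of 9 DN markers, against 8 of 9 in DN-like cells (664). A further cluster of 1455 cells, led by Tspoap1, raised 9 DP and 3 proliferation markers and was left without a cell type name. Hells, Orc1 and Dtl were also among its leading genes, although none of the 48 was used to make the clusters. SP-CD8-like cells (894) raised 7 of 14 proliferation markers. Summed over all their cells, mitosis genes had 2459 CPM, against 314 in SP-CD4-like and 1355 in DN-like cells. The class thus holds cycling cells, and its name does not show that those are mature CD8 cells. Whether it mixes stages was not tested. The same naming rule also gave unlikely names. It named 561 thymic cells proliferating neutrophil-like, and 2127 cells of the unrelated samples DP-P-like, although the study calls those samples non-thymic. These cells are not part of the stages, ranges or B-like classes described below. Levels are counts per 1000000 UMIs outside ribosomal RNA (CPM), given over lobes as the lowest, median and highest value or as mean ± SD (n = 8). They are compared between cells and not between genes, since a long gene collects more intronic UMIs. Levels summed per class do not separate a class with more cells in S phase from one with more RNA per such cell. The S range defined further on held 212 of 857 proliferating DN-like cells, 624 of 3957 DP-P-like cells and 143 of 1455 cells of the Tspoap1-led cluster. The part of these cell numbers in the levels was not tested.

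Promoter sequences are shown for 3 genes that were highest before S phase, for 1 that was highest in it and for Dbf4, which had its highest mean in mitosis, so that the presence of E2F-type letters can be seen beside the levels given further on. The letters searched on both strands were TTTCCCGC, TTTGGCGC and TTTCGCGC, and capitals mark them. Each line gives the 250 bases before the transcription start in the direction of the gene, from RefSeq on GRCm38.p6. The windows are chr4:108579204-108579453 (+ strand) for Orc1, chr19:38930740-38930989 (+ strand) for Hells, chr1:191575545-191575794 (- strand) for Dtl, chr12:24708004-24708253 (+ strand) for Rrm2 and chr5:8422717-8422966 (- strand) for Dbf4.
Orc1: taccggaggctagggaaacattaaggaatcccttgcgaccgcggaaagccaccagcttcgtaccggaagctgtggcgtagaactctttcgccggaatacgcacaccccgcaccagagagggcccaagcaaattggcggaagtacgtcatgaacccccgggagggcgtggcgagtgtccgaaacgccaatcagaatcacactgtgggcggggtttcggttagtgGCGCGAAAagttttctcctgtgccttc
Hells: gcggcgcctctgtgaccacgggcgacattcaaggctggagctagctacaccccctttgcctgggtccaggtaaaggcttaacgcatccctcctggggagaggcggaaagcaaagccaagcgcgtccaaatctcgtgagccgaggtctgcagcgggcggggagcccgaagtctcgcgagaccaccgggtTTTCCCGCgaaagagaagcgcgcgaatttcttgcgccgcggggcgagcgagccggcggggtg
Dtl: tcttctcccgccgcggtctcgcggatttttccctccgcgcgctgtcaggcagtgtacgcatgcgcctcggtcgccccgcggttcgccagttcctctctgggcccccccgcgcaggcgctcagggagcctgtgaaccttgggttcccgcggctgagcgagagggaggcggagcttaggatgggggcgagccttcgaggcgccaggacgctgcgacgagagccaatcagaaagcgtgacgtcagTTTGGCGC
Rrm2: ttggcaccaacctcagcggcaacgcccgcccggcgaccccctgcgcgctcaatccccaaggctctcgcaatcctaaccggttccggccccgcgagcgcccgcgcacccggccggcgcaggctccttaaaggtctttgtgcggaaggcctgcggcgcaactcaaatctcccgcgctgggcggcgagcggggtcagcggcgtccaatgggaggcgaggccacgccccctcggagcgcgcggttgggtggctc
Dbf4: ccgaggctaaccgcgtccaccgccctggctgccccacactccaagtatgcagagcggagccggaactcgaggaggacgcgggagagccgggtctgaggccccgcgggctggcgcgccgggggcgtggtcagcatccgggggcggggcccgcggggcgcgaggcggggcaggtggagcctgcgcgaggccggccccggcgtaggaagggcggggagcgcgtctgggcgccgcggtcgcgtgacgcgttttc
Orc1, Hells and Dtl held 1 match each, starting 27, 62 and 8 bases before the start, while the windows of Rrm2 and Dbf4 held none. A match was not particular to genes that were highest before S phase, since Pclaf, which was higher in S, had TTTCCCGC starting 5 bases before its start. With 50 bases after the start added, 16 of the 41 members with a window held a match (39.0%), against 2.12% of 27025 genes. The matches lay in 7 of 9 licensing genes, 4 of 6 polymerase genes, 3 of 10 clamp, loader and joining genes, 1 of 3 G1/S regulators and 1 of 5 chromatin genes. No match was found in the windows of the 4 firing genes or the 4 nucleotide genes, which says only that these letters are not in these windows. Atad2, Ccne2, Gins1, Gins2, Mcm4, Pole and Prim2 had no window.

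Over thymocyte stages the summed level of the 48 genes was highest in proliferating DN-like cells and lowest in DP-R-like cells. Genes weigh unequally in such sums. In proliferating DN-like cells Pola1 (1152 CPM), Rad51b (922), Atad2 (630) and Prim2 (609) had the highest means. In DN-like cells Prim2 had 492 CPM. The genes of Rad51b, Pola1 and Prim2 span 517409, 327389 and 215986 bases. The sum was 10313 ± 1402 CPM in proliferating DN-like cells, 6663 ± 769.8 in DP-P-like cells and 5537 ± 798 in the Tspoap1-led cluster. It was 3722 ± 556 in SP-CD8-like and 3272 ± 441 in DN-like cells. SP-CD4-like cells had 1184 ± 113, DP-S-like cells 1118 ± 73.3 and DP-R-like cells 1015 ± 63.4. Proliferating DN-like cells lay above DP-P-like cells in every lobe without overlap. The lobes of DP-P-like cells and the Tspoap1-led cluster overlapped (DP-P-like higher in 6 of 8), as did those of SP-CD8-like and DN-like cells (4 of 8) and of SP-CD4-like and DP-S-like cells (5 of 8). DP-S-like cells were above DP-R-like cells in 8 of 8 lobes, but the ranges of their lobes overlapped.

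**Figure D1:**
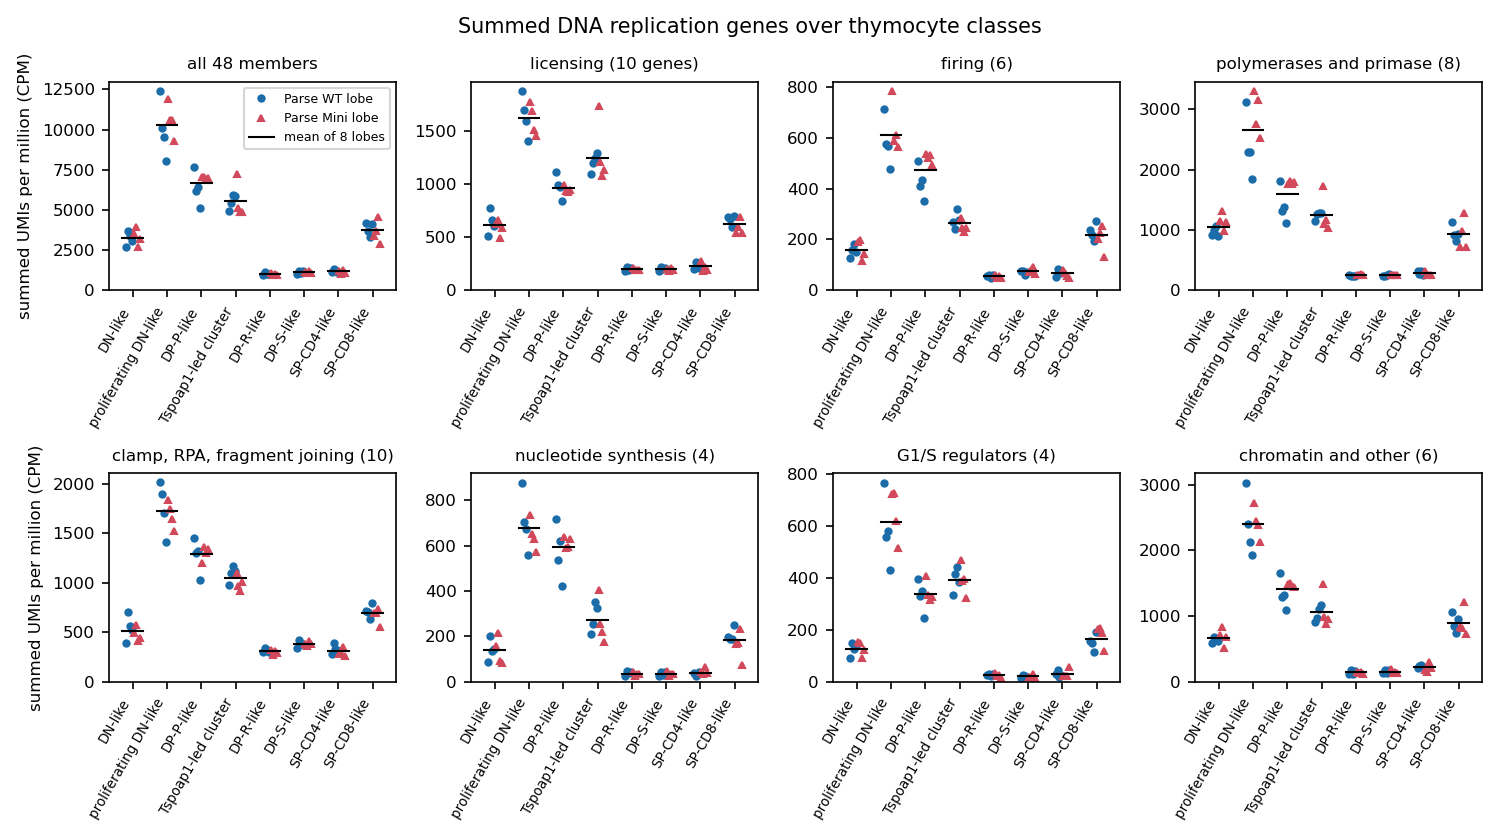
Summed level of the 48 DNA replication genes and of each role group (vertical axis, CPM) in 8 thymocyte classes (horizontal axis). Points are lobes (blue circles Parse WT, red triangles Parse Mini) and black lines the mean of 8 lobes. Proliferating DN-like cells have the highest mean in every group, and only in the licensing and G1/S regulator groups does the mean of the Tspoap1-led cluster exceed that of DP-P-like cells.

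By gene, 42 of the 48 had their highest mean in proliferating DN-like cells. Of the exceptions, Orc1, a subunit of the origin recognition complex, Rpa1, the large subunit of the single-strand binding protein, and Chaf1b, a histone chaperone subunit, were highest in the Tspoap1-led cluster. Dbf4 and Rrm2 were highest in DP-P-like cells, and Pole2 in SP-CD8-like cells. Those leads were small. The Tspoap1-led cluster was above proliferating DN-like cells in 4 of 8 lobes for Orc1 and Rpa1 and in 3 of 8 for Chaf1b. DP-P-like cells were above proliferating DN-like cells in 4 of 8 lobes for Rrm2 and in 6 of 8 for Dbf4. The lowest mean fell in DP-R-like cells for 29 of the 48. The shares of all genes with their highest or lowest mean in each class were not taken.

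The role groups ranked the middle classes differently. Licensing genes summed to 1251 ± 211 CPM in the Tspoap1-led cluster and 966 ± 77.3 in DP-P-like cells, and the G1/S regulators to 395 ± 49.7 and 338 ± 49.8. Nucleotide synthesis genes ranked the other way, at 274 ± 78.7 in the Tspoap1-led cluster and 594 ± 86.8 in DP-P-like cells. The lobes of these classes did not overlap for the nucleotide genes. They did for licensing genes (1082 to 1739 against 838 to 1112) and for G1/S regulators (324 to 470 against 246 to 406). WT lobe 1 ranked the other way for both of these groups, and Mini lobe 2-B for the regulators. Firing genes summed to 264 ± 30.8 CPM in the Tspoap1-led cluster against 472 ± 67.2 in DP-P-like cells. Hells, a helicase of heterochromatin, had 177, 294 and 416 CPM in the Tspoap1-led cluster and 152, 199.9 and 235 CPM in DP-P-like cells (lowest, median and highest lobe). Pclaf, a partner of Pcna, had 55.3, 88.1 and 167 CPM against 229.7, 301 and 358 CPM. Hells thus leaned to the Tspoap1-led cluster with overlapping lobes, and Pclaf to DP-P-like cells with none. These differences were not tested. Mitosis genes stood at 1771 CPM in the Tspoap1-led cluster and 9057 in DP-P-like cells, and replication-dependent histones at 423 and 1689, so that the classes also differed in these lists.

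The main comparison asked how far each gene stood above its resting level when double-positive cells divided. All 48 genes were higher in DP-P-like than in DP-R-like cells (edgeR quasi-likelihood test with the lobe as a block, adjusted p under 0.05), where 35.4% of 10252 tested genes were called higher and 33.6% lower. As the 48 were chosen with earlier results of these data known, their counts here and below are not independent of that choice. Each of the 48 was higher in 8 of 8 lobes, which held for 24.2% of all genes. The lowest DP-P-like lobe lay above the highest DP-R-like lobe for 47 of them, against 13.9% of all genes, Rpa1 being the exception. The summed level was 6.60 ± 1.01 times higher (SD, n = 8, range 4.89 to 7.93). The median log2 fold change of the 48 was 3.05 and that of all genes 0.01. DP-P-like cells were also deeper, with a median of 5487 UMIs against 1698. With cells thinned to 1000 UMIs outside ribosomal RNA, 47 members were tested and 47 were higher. Cells with fewer such UMIs dropped out of that setting, so it covers only the deeper cells of each class. The median outside ribosomal RNA was 4165 UMIs in DP-P-like and 1376 in DP-R-like cells.

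Licensing genes rose by a median log2 fold change of 2.01, with a wide spread. Cdc6, which loads the helicase and is made anew in each cycle, had 73.6, 104 and 127 CPM in DP-P-like lobes and 1.31, 2.88 and 5.30 CPM in DP-R-like lobes. Its log2 fold change was 4.83 ± 0.15 (SE), adjusted p = 1.77e-15. Orc1 had 35.0, 48.2 and 71.1 CPM against 12.6, 19.7 and 23.2 CPM. The change of Orc1, 1.36 ± 0.10 (adjusted p = 3.32e-17), was the smallest of the group. The helicase subunits, which act as one ring, differed in their change. Mcm5 rose by 3.51 ± 0.09 and Mcm3 by 3.10 ± 0.12, but Mcm2 by 1.62 ± 0.08, Mcm7 by 1.77 ± 0.06 and Mcm4 by 1.85 ± 0.07. Mcm2 went from 16.4, 19.7 and 26.2 CPM to 48.9, 57.0 and 91.0 CPM, and Mcm5 from 6.06, 9.67 and 11.3 CPM to 96.7, 105 and 127 CPM. DP-R-like cells thus kept a higher share of the dividing level of Mcm2 than of Mcm5. Mcm6 rose by 2.51 ± 0.06, Orc6 by 2.16 ± 0.11 and Cdt1, the other loading factor, by 1.65 ± 0.10.

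The 6 firing genes had a median of 3.28. Mcm10, a scaffold of the active helicase, had the largest change of all 48. It had 65.6, 83.1 and 102 CPM in DP-P-like and 0.867, 1.90 and 4.62 CPM in DP-R-like lobes, a log2 fold change of 4.96 ± 0.21 (adjusted p = 2.29e-10). Cdc45, which rides with the helicase, followed with 4.71 ± 0.15. Within the kinase, the catalytic subunit Cdc7 rose by 3.34 ± 0.10 and its partner Dbf4 by 2.06 ± 0.08. Dbf4 had 24.9, 29.9 and 34.6 CPM in DP-R-like lobes, so the partner was present in resting cells too. Gins1 and Gins2, of the GINS complex, rose by 3.23 ± 0.11 and 1.64 ± 0.16.

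Among the polymerases (median 2.88), catalytic subunits changed more than their partners in some complexes. Pola1, the catalytic subunit of polymerase alpha, rose by 4.03 ± 0.15 and its partner Pola2 by 1.56 ± 0.08. The primase subunits Prim1 and Prim2 rose by 3.81 ± 0.18 and 1.62 ± 0.04, and the polymerase epsilon subunits Pole and Pole2 by 4.56 ± 0.10 and 3.10 ± 0.13. In polymerase delta, Pold1 and Pold3 rose by 2.66 ± 0.11 and 2.30 ± 0.06. Pole had 88.3, 124 and 145 CPM in DP-P-like lobes against 2.74, 4.75 and 7.66 CPM, and Prim2 303, 390.0 and 463 CPM against 109, 129.7 and 143 CPM. Both pairs of ranges lay apart, but Prim2 was well detected in resting cells. Differences in fold change between genes were not tested.

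Clamp, loader and joining genes (median 2.41) included the smallest change. Rpa1 had 116, 155 and 164 CPM in DP-P-like and 95.2, 109 and 121 CPM in DP-R-like lobes, with overlap, and rose by 0.46 ± 0.05 (adjusted p = 2.65e-11). Its level in DP-S-like cells, 135, 154 and 179 CPM, overlapped that of DP-P-like cells. The smaller subunit Rpa2 rose by 2.15 ± 0.11. The loader subunits rose by 1.35 (Rfc1), 2.36 (Rfc3), 3.00 (Rfc4) and 1.82 (Rfc5). Pcna rose by 2.61 ± 0.11, the flap nuclease Fen1 by 2.45 ± 0.12 and the ligase Lig1 by 3.80 ± 0.10. Pclaf had 229.7, 301 and 358 CPM against 5.20, 9.83 and 25.5 CPM and rose by 4.47 ± 0.25 (adjusted p = 8.35e-07).

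Nucleotide synthesis genes had the highest group median, 3.96. Rrm2, the small subunit of ribonucleotide reductase, had 126, 203 and 226 CPM in DP-P-like and 3.03, 7.53 and 8.99 CPM in DP-R-like lobes and rose by 4.76 ± 0.11 (adjusted p = 5.90e-18). The large subunit Rrm1 rose by 3.50 ± 0.16, thymidylate synthase (Tyms) by 3.98 ± 0.13 and thymidine kinase (Tk1) by 3.94 ± 0.13. The G1/S regulators (median 3.58) ran from 3.48 to 4.11. Cyclins E1 and E2 (Ccne1, Ccne2) rose by 3.59 ± 0.16 and 4.11 ± 0.15, E2f1 by 3.56 ± 0.16 and Dtl, the substrate receptor of the ligase that degrades Cdt1 in S phase, by 3.48 ± 0.10. In the last group (median 3.22), Rad51b, a recombination gene, rose by 4.21 ± 0.16. Chaf1a rose by 4.14 ± 0.26 and its partner Chaf1b by 1.46 ± 0.10. Hells rose by 3.52 ± 0.15, the chromatin ATPase Atad2 by 2.92 ± 0.08 and Slbp, which binds histone mRNA, by 2.81 ± 0.08.

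**Figure D2:**
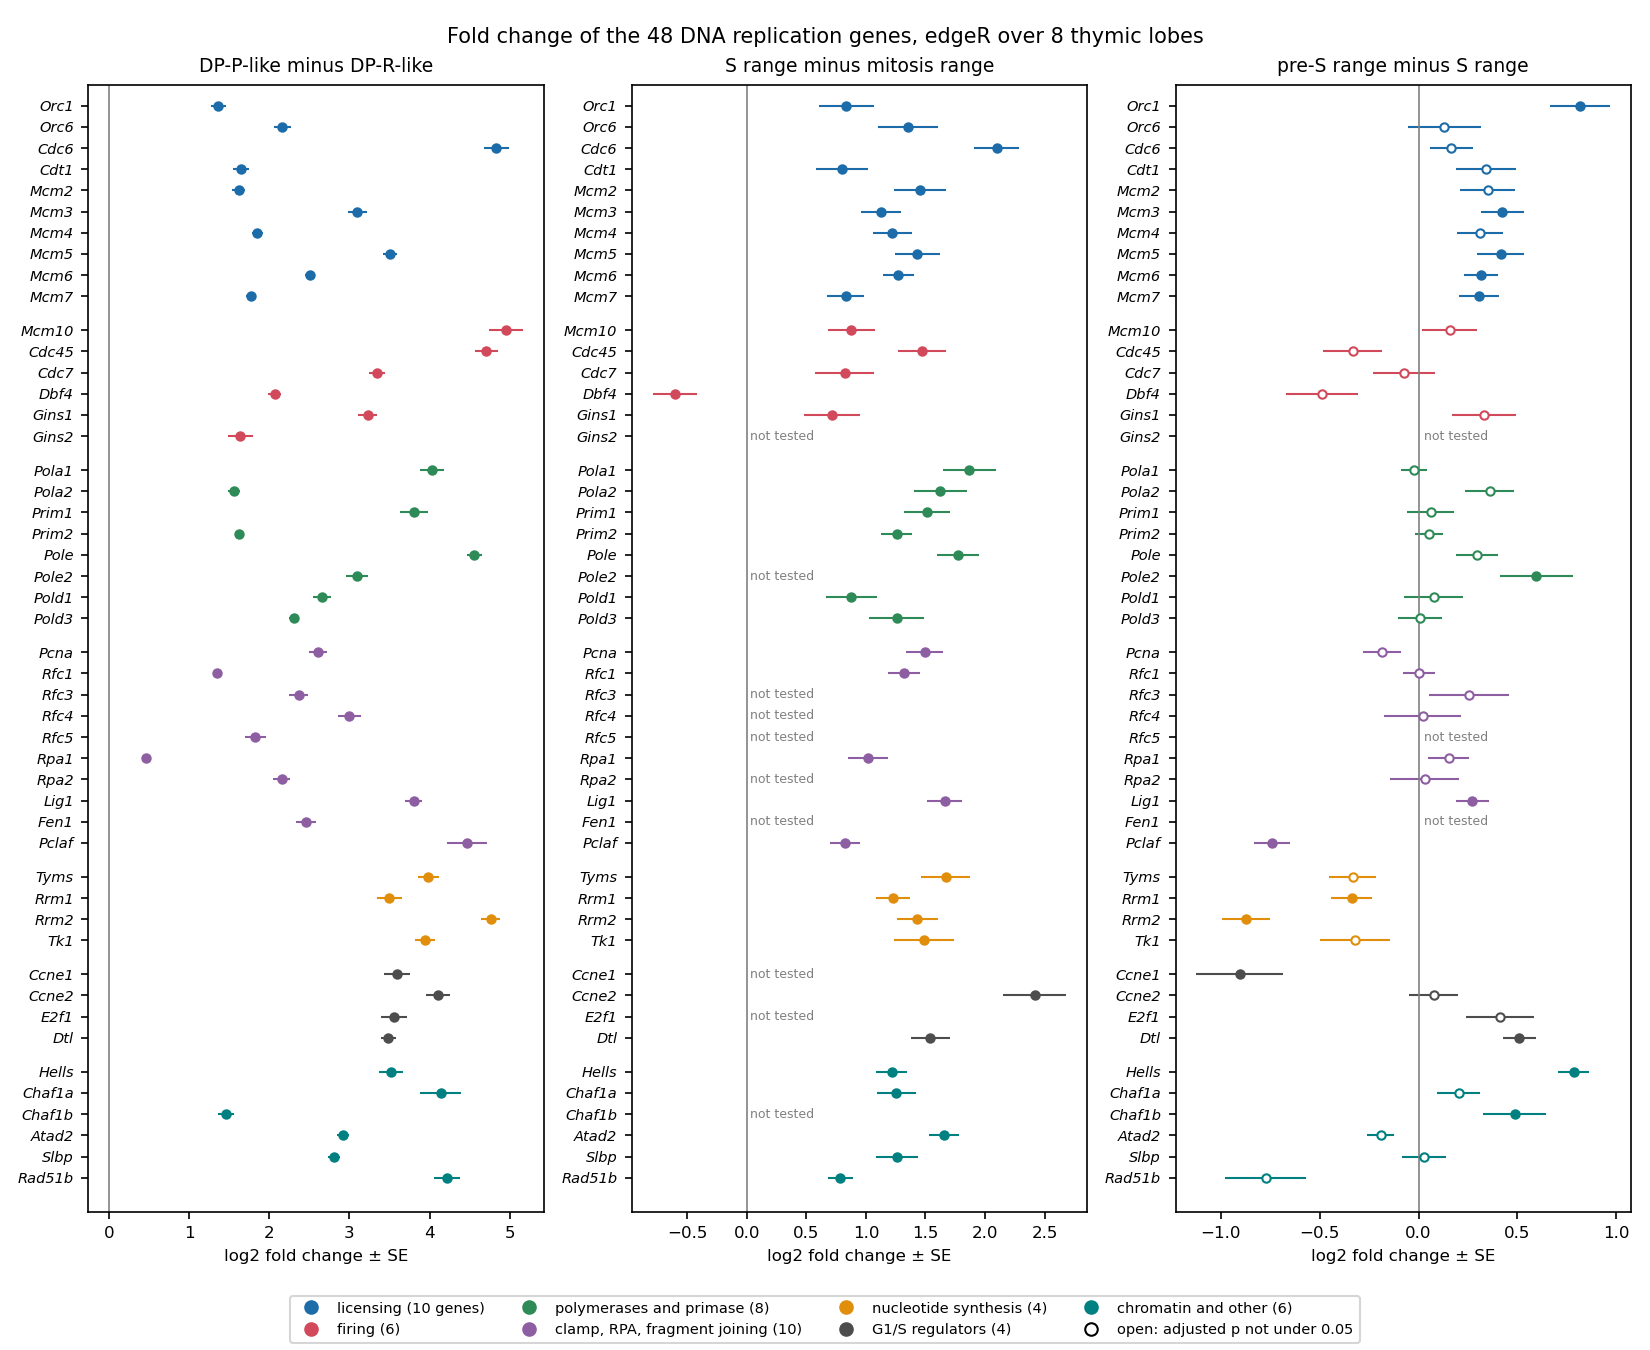
Log2 fold change with its SE (horizontal axis) of each of the 48 genes (vertical axis, coloured by role) in 3 edgeR comparisons over 8 lobes, DP-P-like minus DP-R-like cells (left), S minus mitosis range (middle) and pre-S minus S range (right). Filled points passed an adjusted p of 0.05, open points did not, and "not tested" marks genes under the count filter. All 48 lie above 0 on the left, only Dbf4 lies below 0 in the middle, and the genes divide around 0 on the right. The middle and right comparisons share the S range.

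Of all 10252 genes tested, 35.4% were called higher in DP-P-like cells and 33.6% lower. Of 39 further replication genes, 38 were tested, of which 32 were higher in DP-P-like cells, 4 lower and 2 not called, with a median of 1.85. The largest changes were those of Ticrr (5.45 ± 0.13), which recruits firing factors, Ccna2 (4.97 ± 0.22), the S phase cyclin A, and Chtf18 (4.84 ± 0.20), a loader subunit. The smallest were those of Samhd1 (-0.67 ± 0.18), a hydrolase of nucleotides, Orc4 (-0.29 ± 0.05) and Dck (-0.23 ± 0.04), the deoxycytidine kinase. Those 3 fell, each lower in DP-P-like cells in 8 of 8 lobes, and Orc3 was the other gene called lower. Orc1 and Orc6 thus rose as a share of counted RNA while Orc4, of the same complex, fell. Amounts per cell were not compared, and DP-P-like cells held more UMIs per cell than DP-R-like cells.

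To place the genes in the cycle, DP-P-like cells, proliferating DN-like cells and the Tspoap1-led cluster with at least 1000 UMIs outside ribosomal RNA, 6085 cells, were cut into ranges by lists that hold none of the 48. The S range (979 cells) had at least 10 UMIs of 59 replication-dependent histone genes per 10,000 and under 60 of 27 mitosis genes. The mitosis range (418 cells) had at least 60 mitosis and under 5 histone UMIs. The pre-S range (539 cells) had at least 20 UMIs of 20 G1/S genes, under 30 mitosis and under 5 histone UMIs. The remaining 4149 cells fell in no range. These limits are scaled to the UMIs of each cell outside ribosomal RNA. The median was 3270 such UMIs in the pre-S, 4108 in the S and 3453.5 in the mitosis range. The histone limits thus rest on few UMIs per cell, and the depth of a cell bears on its range. These are ranges of scores and not sorted phases, and many cells lay near a limit. Of the 979 S range cells, 205 lay within 25% above the histone minimum and 353 within 25% below the mitosis maximum, and 118 of the 418 mitosis range cells lay within 25% above the mitosis minimum. The Tspoap1-led cluster was included although it raised only 3 of 14 proliferation markers, while SP-CD8-like cells, which raised 7, were not. Hells, Orc1 and Dtl are among the leading genes of the Tspoap1-led cluster. The choice of clusters to cut was therefore not independent of the 48, although the lists were. The clusters split unevenly over the ranges. DP-P-like cells made up 30.4% of the pre-S, 63.7% of the S and 82.5% of the mitosis range, the Tspoap1-led cluster 47.1%, 14.6% and 8.13%, and proliferating DN-like cells 22.4%, 21.7% and 9.33%. Cells of the kits also spread differently. The S range took 14.3% to 20.7% of these cells in WT lobes and 5.59% to 9.36% in Mini lobes, and the mitosis range 4.83% to 5.88% and 6.80% to 12.2%. The part of this spread in the results was not tested. Mini lobe 1-A stood apart in the mitosis range, with a summed level of the 48 of 6639 CPM against 2292 to 4724 in the other 7 lobes.

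Set against the mitosis range, the S range was higher for nearly all genes that could be tested. Of 38 tested members, 37 were higher and 1, Dbf4, was lower, where 16.2% of 4076 tested genes were called higher and 17.0% lower. Without Mini lobe 1-A, 38 of 39 tested members were higher. The 10 untested members were Gins2, Pole2, Rfc3, Rfc4, Rfc5, Rpa2, Fen1, Ccne1, E2f1 and Chaf1b, too low in counts, and a fit with no filter gave 46 of 48 higher and 1 lower. Ccne2 differed most. It had 84.1, 134 and 206 CPM in the S range and 0, 19.9 and 68.3 CPM in the mitosis range, a log2 fold change of 2.42 ± 0.26 (adjusted p = 3.03e-09), with no overlap. Cdc6 had 122, 188 and 303 CPM against 18.0, 40.2 and 82.0 CPM and a change of 2.10 ± 0.19 (adjusted p = 4.88e-13), also without overlap. Pola1 and Pole followed with 1.87 ± 0.23 and 1.77 ± 0.17. Of all genes called, 48.8% were higher in S, and 61.7% with library totals in place of TMM scaling. By group, the medians over the tested members were 1.98 for G1/S regulators, 1.51 for polymerases, 1.46 for nucleotide synthesis, 1.32 for clamp, loader and joining genes, 1.26 for chromatin genes, 1.25 for licensing and 0.82 for firing. With ranges set after thinning, 40 of 47 tested members were higher and the median of the members fell from 1.27 to 0.68. The change of Ccne2 was then 1.22, that of Cdc6 1.36, and that of Pclaf 0.06 in place of 0.82 ± 0.13.

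Dbf4 went the other way. It had 33.4, 53.4 and 105 CPM in the pre-S range, 28.1, 75.0 and 131 CPM in the S range and 54.1, 101 and 169 CPM in the mitosis range, and was lower in S than in mitosis in 6 of 8 lobes. The lobes overlapped widely and the log2 fold change was -0.61 ± 0.18 (adjusted p = 0.00836). The call was lost with DESeq2, in Mini lobes alone, without WT lobe 3 and with stricter limits of the ranges. Its partner Cdc7 was higher in S, by 0.82 ± 0.25 (adjusted p = 0.00894), a call lost in Mini lobes alone, without WT lobe 4 and when ranges were set after thinning. The smallest rises that passed were those of Gins1 (0.71 ± 0.24), Rad51b (0.78 ± 0.11) and Cdt1 (0.80 ± 0.22). The call was lost in 3 of 17 alternatives for Gins1 (adjusted p up to 0.426), in 1 of 19 for Rad51b (0.243) and in 1 of 17 for Cdt1 (0.0967).

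Which genes stood higher before S phase and which in it was asked by the comparison of the pre-S with the S range. By their means, 33 of the 48 were highest in the pre-S range, 14 in the S range and 1 (Dbf4) in the mitosis range. Most of these leads did not pass the test. The range with the highest mean was not counted over all genes. Of 45 tested members, 10 were higher in the pre-S range, 4 were lower and 31 were not called, where 4.11% of 4628 tested genes were called higher and 6.37% lower. Of all genes called, 39.2% were higher in the pre-S range, and 59.5% with library totals, which gave 14 members higher and 3 lower. Gins2, Rfc5 and Fen1 were not tested. Within DP-P-like cells alone, 30 members were tested, with 3 higher (Hells, Dtl and Pole) and 3 lower (Pclaf, Rrm2 and Rad51b). The calls of Mcm3, Mcm5, Mcm6, Mcm7, Lig1 and Rrm1 were lost there, and Orc1, Pole2, Chaf1b and Ccne1 were under the count filter. The G1/S list itself, by which the pre-S range was cut and the S range was not, stood at 4065 ± 310.1 CPM against 3758 ± 538. When S range cells were held to the same G1/S minimum, a setting added once the data had been seen, 3 members were higher (Orc1, Hells and Dtl) and 10 lower. Over all 4525 genes tested in that setting, 144 were higher and 300 lower. The members' median log2 fold change was then -0.037, against 0.131 in the main setting, so the lean of the list to the pre-S range was not kept. The higher count was 5, 6 and 4 without WT lobes 2, 3 and 4, 8 in WT lobes alone and 2 in Mini lobes alone.

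Of the 10 genes higher in the pre-S range, 5 were licensing genes. Hells had 467, 598 and 824 CPM in the pre-S range and 224, 315 and 491 CPM in the S range, was higher in 8 of 8 lobes and differed by 0.79 ± 0.08 (adjusted p = 3.60e-13), and it passed under all 20 alternatives. Orc1 had 82.2, 127 and 173 CPM against 54.1, 64.5 and 149.7 CPM, higher in 8 of 8 lobes, and differed by 0.82 ± 0.15 (adjusted p = 3.00e-05). Dtl had 402, 496 and 598 CPM against 208, 396 and 486 CPM, again in 8 of 8 lobes, and differed by 0.51 ± 0.08 (adjusted p = 1.99e-06). All 3 stood higher before S phase in every lobe, which held for 6 of the 48 in all and for 3.48% of 4628 tested genes. The ranges of lobes overlapped, and the highest S range value of Orc1 was that of Mini lobe 1-A. These 3 are also among the leading genes of the Tspoap1-led cluster, which made up 47.1% of the pre-S and 14.6% of the S range. Dtl lost its call in Mini lobes alone, and Orc1 there and when ranges were set after thinning.

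The helicase genes leaned the same way by less. Mcm3 was higher in the pre-S range by 0.42 ± 0.11 (adjusted p = 0.0044), Mcm5 by 0.41 ± 0.12 (0.0126), Mcm6 by 0.32 ± 0.09 (0.00979) and Mcm7 by 0.31 ± 0.10 (0.0345). Mcm2 and Mcm4 gave 0.35 ± 0.14 (adjusted p = 0.0937) and 0.31 ± 0.12 (0.0697) and did not pass. The 4 helicase calls, and those of Pole2 (0.60 ± 0.18), Chaf1b (0.49 ± 0.16) and Lig1 (0.27 ± 0.08), were all lost when the S range was held to the same G1/S minimum. Over all alternatives in which each was tested, the call was lost in 14 of 20 for Mcm7, 11 of 20 for Lig1, 11 of 19 for Chaf1b, 10 of 18 for Pole2, 9 of 20 for Mcm5 and for Mcm6, and 4 of 20 for Mcm3. Cdc6 (0.17 ± 0.11, adjusted p = 0.389) and E2f1 (0.41 ± 0.17, adjusted p = 0.121) were not called.

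The 4 genes higher in the S range were Pclaf, Ccne1 and, of the 4 nucleotide synthesis genes, Rrm2 and Rrm1. Pclaf had 179, 222 and 236 CPM in the pre-S range and 267, 331 and 429 CPM in the S range, a difference of -0.74 ± 0.09 (adjusted p = 1.27e-09), lower before S in 8 of 8 lobes and the only one of the 48 whose lobes did not overlap. The share of all genes lower before S in all lobes, or without overlap, was not taken. Rrm2 had 100.3, 129 and 157 CPM against 155, 235 and 334 CPM and differed by -0.87 ± 0.12 (adjusted p = 3.77e-08), in 8 of 8 lobes. Pclaf and Rrm2 passed under all 20 alternatives. Ccne1 had 7.86, 35.5 and 45.4 CPM against 37.8, 62.8 and 85.0 CPM and differed by -0.90 ± 0.22 (adjusted p = 0.00242), in 8 of 8 lobes, but lost its call in Mini lobes alone and when ranges were set after thinning. Ccne2, its paralog, did not differ past the threshold (0.08 ± 0.12, adjusted p = 0.779). Rrm1 differed by -0.34 ± 0.10 (adjusted p = 0.0189), a call that 11 of 20 alternatives lost. Tyms (-0.33 ± 0.12, adjusted p = 0.0579) and Tk1 (-0.32 ± 0.18, 0.28) had the same sign and did not pass. Rad51b had 251, 447 and 618 CPM against 484, 694 and 1006 CPM, lower before S in 8 of 8 lobes, with -0.77 ± 0.21 (adjusted p = 0.0528), and passed in 11 of 20 alternatives. Of the 8 polymerase genes, Pole2 alone was called, and the others ran from Pola1 at -0.03 ± 0.07 to Pole at 0.30 ± 0.11 (adjusted p = 0.0599) and Pola2 at 0.36 ± 0.13 (0.0528). The loader genes Rfc1, Rfc3 and Rfc4, at 0.00 ± 0.08, 0.26 ± 0.20 and 0.02 ± 0.20, were not called.

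**Figure D3:**
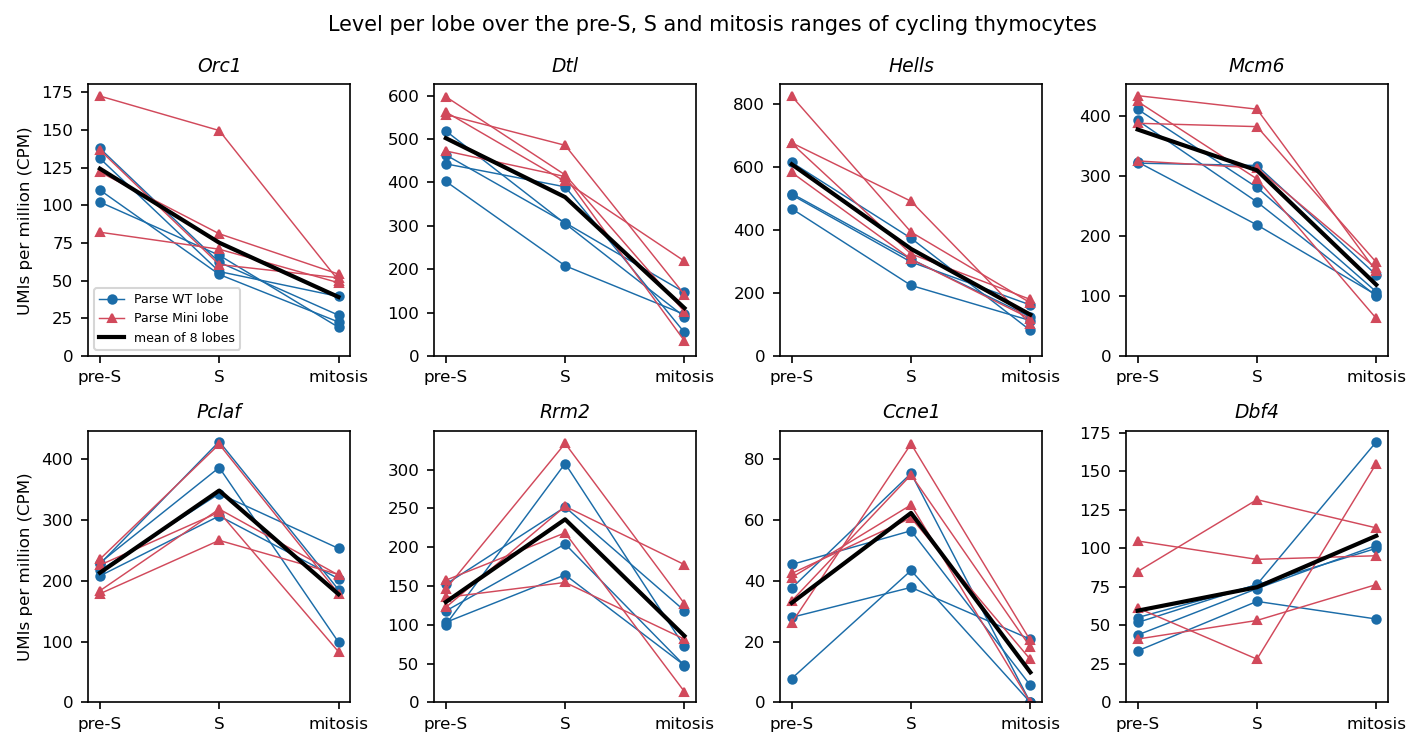
Level (vertical axis, CPM) of 8 genes, picked for display after their values were seen, in the pre-S, S and mitosis ranges (horizontal axis). Thin lines are lobes (blue circles Parse WT, red triangles Parse Mini) and thick black lines their mean. Orc1, Dtl, Hells and Mcm6 fall from pre-S to mitosis, Pclaf, Rrm2 and Ccne1 peak in the S range, and Dbf4 has its highest mean in mitosis.

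Of the 39 further replication genes, 24 were tested between the pre-S and S ranges, and 3 were higher in the pre-S range, 2 lower and 19 not called. Of all 4628 genes tested there, 4.11% were called higher and 6.37% lower. Between the S and mitosis ranges, 21 of the further genes were tested, with 17 higher in S, 1 lower and 3 not called. Of all 4076 genes tested there, 16.2% were called higher and 17.0% lower.

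The dividing B cells of the unrelated samples gave another setting for the same genes. Proliferating B-like cells came from a cluster of 1142 cells led by Mybl1, with S1pr2 and Rgs13, genes of germinal centre B cells, among its leading genes, and from a cluster of 240 cells led by Cep55. Both raised 14 of 14 proliferation markers and 8 and 10 of 12 B markers. In 15 of 16 samples at least 10 cells of each class were found, with 1381 proliferating and 25855 other B-like cells in all, and 11 to 356 proliferating cells per sample. The tissue and treatment of each sample are not given, and the samples were pooled and described without a test. The summed level of the 48 was 4392, 6495 and 9384 CPM (lowest, median and highest sample) in proliferating and 964, 1189 and 1306 CPM in other B-like cells. Within samples, that made the proliferating cells 3.96 to 8.12 times higher (median 5.67).

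All 48 genes had the higher median in proliferating B-like cells. In every one of the 15 samples 31 of them were higher, against 3.25% of 12450 genes with at least 100 UMIs. For 25 the lowest proliferating value lay above the highest of the other B-like cells, against 2.09%. In the 5 samples with at least 100 proliferating B-like cells, all 48 were higher in each, against 22.4% of these genes. Mcm10 had 52.0, 92.1 and 355 CPM against 0.469, 2.10 and 3.08 CPM, a ratio of medians of 43.8, the largest of the 48. Pclaf had 31.5, 136 and 229.5 CPM against 0.835, 3.22 and 7.04 CPM, and Cdc6 31.5, 78.8 and 130.0 CPM against 0, 2.49 and 3.84 CPM. These 3 lay apart in all 15 samples.

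For other genes the samples overlapped in B cells. Cdt1 had 0, 40.9 and 78.8 CPM against 12.8, 25.2 and 31.7 CPM, a ratio of 1.62, the smallest of the 48, and was higher in 14 of 15 samples. Rpa1 had 88.5, 165 and 276 CPM against 54.4, 85.3 and 110.0 CPM, a ratio of 1.93, and Rpa2 a ratio of 1.93. Orc1, with a ratio of 8.45, had 0, 26.5 and 55.5 CPM against 0, 3.13 and 5.36 CPM and was higher in 13 of 15 samples, but in the 5 samples with at least 100 proliferating cells it lay apart, at 40.9 to 55.5 against 3.03 to 5.36 CPM. In samples with few proliferating cells a value of 0 means that no UMI was counted, not that the gene was silent. Dbf4, Rrm2 and Hells had ratios of 6.20, 31.0 and 9.06, each higher in 15 of 15 samples and without overlap. In the unrelated samples the 48 summed to 4238 to 7522 CPM in proliferating T-like cells (8 samples) and to 8695 to 14485 in proliferating erythroid-like cells (14 samples), against 899.7 to 1352 in other T-like cells (16 samples).

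**Figure D4:**
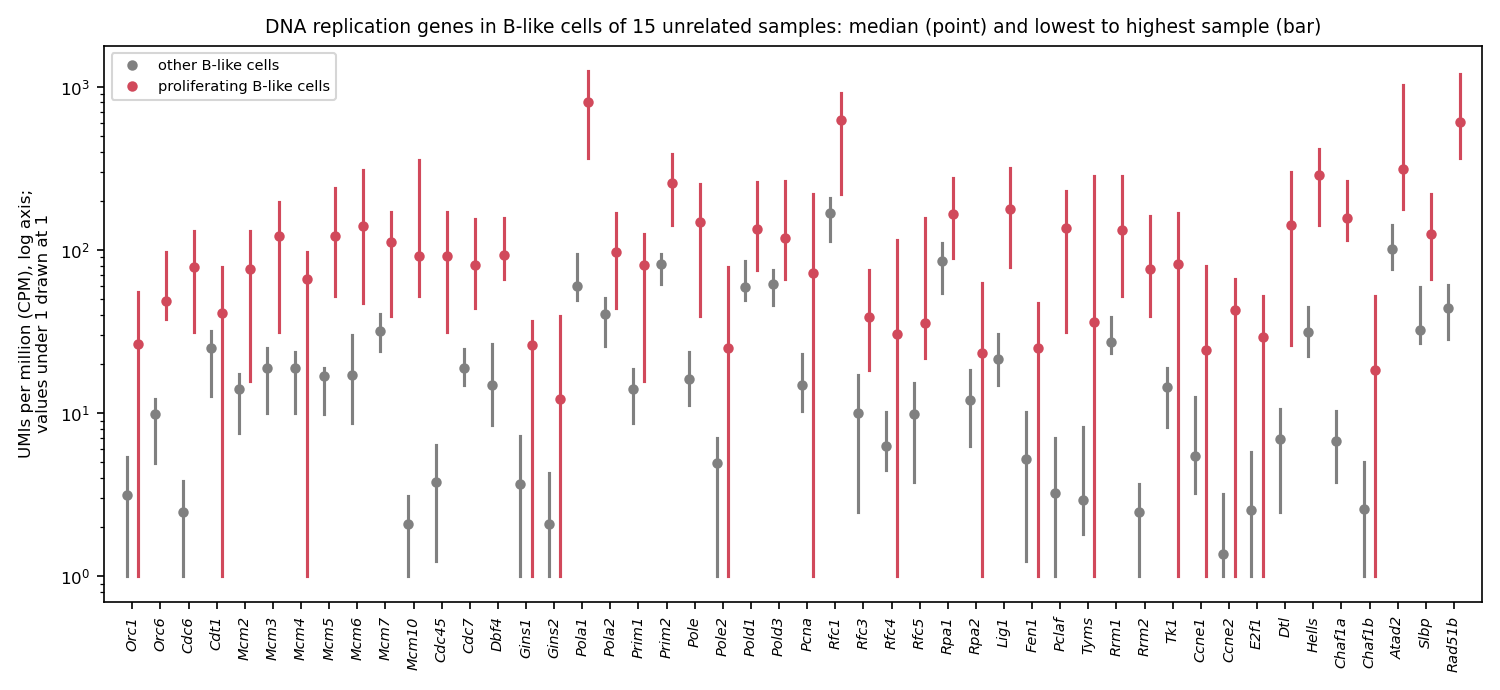
Level (vertical axis, CPM, log axis, values under 1 drawn at 1) of the 48 genes (horizontal axis) in proliferating (red) and other (grey) B-like cells of 15 unrelated samples. Points are medians over samples and bars run from the lowest to the highest sample. All 48 medians are higher in proliferating cells, and bars that reach the bottom belong to samples in which the gene had no or almost no UMI.

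The kits, which also differ in mice and run and cannot be told apart from them, overlapped in the summed level of the 48 genes. The 48 genes summed to 5099 to 7647 CPM in DP-P-like cells of WT lobes and to 6900 to 7070 in Mini lobes, and to 964 to 1117 and 948 to 1079 in DP-R-like cells. In the pre-S range the sums were 8799 to 10786 in WT and 10702 to 12236 in Mini lobes. All of these ranges overlapped. The lists that cut the ranges did not overlap in every class. Mitosis genes had 6410 to 9055 CPM in DP-P-like cells of WT lobes and 10276 to 10803 in Mini lobes, and 4633 to 4722 against 5949 to 6696 in proliferating DN-like cells. Histones were higher in WT lobes, without overlap, in the Tspoap1-led cluster (456 to 597 against 296 to 415 CPM), in DP-R-like and in DP-S-like cells. Their part in the results was not tested.

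In GENCODE M21 (GRCm38), 19 of the 48 genes are overlapped by a gene on the other strand and 12 by one on the same strand. The sources used here do not say whether the counting used strand, so reads of such pairs cannot be told apart. Of the genes shown above, Orc1 (chromosome 4, 108579423 to 108614833) overlaps Gm12743 on the other strand, and Pclaf (chromosome 9, 65890237 to 65903266) overlaps Trip4 on the other strand and Gm23248 on its own. Hells, Dtl, Rrm2, Ccne1 and Dbf4 overlap no listed gene.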

How the data were processed

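Single-cell RNA was measured in 8 thymic lobes and 16 unrelated mouse samples with 2 Parse kits. The authors ran split-pipe on each of 9 (WT) and 2 (Mini) sublibraries against mm10 from Ensembl and deposited raw counts of UMIs for each gene in each cell, with tables of the cells and genes. A split-pipe version and an Ensembl release were not given in the sources used here. Libraries of the 10x kit were not analysed here. As the listed samples are sublibraries of pooled cells, the deposited cell tables were used to assign cells to lobes.

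Kept cells held 500 to 25,000 UMIs, with no more than 15% of them mitochondrial. Doublets were called by a neighbour-based procedure with artificial doublets, written for this work, which marked 30.6% of 58642 thymic and 18.1% of 81396 other cells and recovered 75.1% of artificial doublets in the thymus. Cells were clustered on 2000 variable genes and 30 principal components (leidenalg 0.10.2, scikit-learn 1.9.0) without the members and the 39 further replication genes. A cluster was named from at least 3 raised markers, and clusters with over 60% of cells from 1 sample were left unnamed.

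Counts were summed per lobe and class. edgeR 4.0.16 (R 4.3.3) tested 3 comparisons by quasi-likelihood with TMM, its default filter on low counts, the lobe as a block and Benjamini-Hochberg adjustment over all genes tested, at 0.05. The classes compared are cells of the same lobes, which is where the pairing comes from. DESeq2 1.42.0 was an alternative. On simulated data for the DP-P-like comparison (10252 genes, 200 changed), 88% of increases of 1.5-fold, 100% of those of 2-fold and 4-fold and 96% of decreases to 0.5 were recovered, with 4% of calls false. The real comparison called 3628 genes higher and 3448 lower, far more than were changed in the simulation, which also held no kit effect. The 4% therefore cannot be carried over to the calls reported, and the comparisons of ranges were not simulated. Differences between B-like classes, stages and kits were described without a test.

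All 48 members were named. Of the 39 further genes, those with the 3 largest and 3 smallest fold changes in the DP-P-like comparison were named. The members and lists were chosen with earlier results of these data known, and the doublet limit, the naming rule, the Tspoap1-led class and the limits of the ranges were set after the data were seen. Alternatives were another scaling, another tool, no filter, no block, each kit alone, each lobe left out, lower UMI limits, thinning, another clustering resolution, stricter ranges, DP-P-like cells alone and doublets kept. The comparisons of ranges were not run with another clustering resolution or with doublets kept. Counts per lobe limit low genes in the ranges, where single lobes held 18 to 365 cells.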

Additional observations from a re-analysis of the deposited data

Results flagged for a closer look

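Among 240 sets of 8 lobes (48 genes in DP-P-like, DP-R-like, pre-S, S and mitosis sets), 16 held a lobe far from the other 7 by Dixon's criterion (6.67%), where chance gives about 1 in 20. Mini lobe 1-A was that lobe in 11 of them.

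In the mitosis range Mini lobe 1-A had 72.9 CPM of Orc6 (13.9 to 28.3 in the others), 132.1 of Cdc45 (13.6 to 61.8), 765.0 of Pola1 (132.0 to 377), 150.3 of Prim1 (18.0 to 62.5), 141 of Pole (39.4 to 69.5), 63.8 of Pole2 (9.01 to 33.8) and 141 of Tyms (13.9 to 57.1). All 7 were higher there than in any other lobe. In the S range the same lobe had 149.7 of Orc1 (54.1 to 81.2) and 206 of Chaf1b (43.4 to 101). It had 63.7 of Pola1 in DP-R-like cells (29.5 to 44.8) and 14.6 of Fen1 in DP-P-like cells (28.7 to 38.9).

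The others were Mini lobe 1-B with 301 CPM of Mcm4 in the pre-S range (164 to 221) and 108 of Tk1 in the S range (59.1 to 75.3), and Mini lobe 2-A with 121 of Mcm7 in the S range (193 to 253), 457 of Pole in the pre-S range (217 to 314) and 111 of Pole2 in the S range (37.8 to 65.7). All 16 lay in the Mini kit. Its lobes held 28 to 44 cells in the S range. Mini lobe 1-A held 69 cells in the mitosis range, where WT lobes held 18 to 104, and 1890 DP-R-like cells. It had the lowest depth of the 8 lobes, with 7080004 UMIs and a median of 1514 per cell. The part of cell number and depth was not tested.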

How the results depend on the processing

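In the DP-P-like comparison, 48 members were called higher and 0 lower under each of 18 alternatives, and 47 of 47 with cells thinned to 1000 UMIs. With called doublets kept, the members' median log2 fold change was 2.54 against 3.05. Called thymic doublets had a median of 8645 UMIs, against 2073 in kept cells. Between the S and mitosis ranges, 37 were called higher and 1 lower (Dbf4). The lower count was 0 with DESeq2, in Mini lobes alone and with stricter ranges, and 0 to 1 over single lobes left out, 0 being without WT lobe 3. The higher count was 36 to 38 over single lobes left out, 32 in Mini lobes alone, 42 in WT lobes alone, 26 of 27 tested with stricter ranges, 29 of 30 in DP-P-like cells alone, and 40 of 47 with ranges set after thinning, where the members' median log2 fold change was 0.68 against 1.27. With library totals in place of TMM, 853 of all genes were called higher and 529 lower, against 661 and 693, and the members' counts stayed at 37 and 1.

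Between the pre-S and S ranges, 10 were called higher and 4 lower. The higher count was 4 with DESeq2, 4 with no filter, 2 in Mini lobes alone, 5 with ranges set after thinning, 3 in DP-P-like cells alone and 3 with the S range held to the same G1/S minimum. That last setting gave 10 lower. Over single lobes left out the counts ran from 4 to 14 higher and from 3 to 5 lower. With library totals 14 were higher and 3 lower, and over all genes 350 higher and 238 lower, against 190 and 295. DESeq2 called 52 genes higher and 181 lower. The cause of these shifts was not tested. Alternatives to the filter and the samples change how many genes are tested.

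Without the replicate block on the lobe, the pairing of classes within a lobe was ignored, and 6 members were higher and 4 lower in the pre-S range, while the counts of the other 2 comparisons, 48 and 37 higher, were the same. No direction of a called member reversed. The ratio of summed levels was 6.32 (DP-P-like over DP-R-like) and 5.49 (B-like) over all UMIs, and 5.57 in B-like cells with cells over 10,000 UMIs left out and 4.92 with doublets kept.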
